A study of Homo sapiens with 6 samples.

Results

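The STAR family (signal transduction and activation of RNA) was read here in MDA-MB-231 cells silenced for SAM68. Its 5 members were found by gene symbol in the deposited expression table: KHDRBS1, which encodes Sam68, its close paralogs KHDRBS2 and KHDRBS3, and the more distant relatives QKI and SF1. Each symbol matched 1 locus, so the family makes up 5 of the 74852 loci in the table. The comparison asked which STAR and other KH domain genes are expressed in this line, and whether the RNA of any relative differed when KHDRBS1 was silenced.

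STAR proteins bind single-stranded RNA through 1 hnRNP K homology (KH) domain, which in Sam68 is set between flanking regions. Many of them bind as dimers. Sam68, SLM1 (from KHDRBS2) and SLM2 (from KHDRBS3) regulate alternative splicing and share many RNA targets, and in the brain the paralogs can stand in for each other on some exons. Quaking, from QKI, controls splicing, stability and translation of its targets, and SF1 recognizes the branch point of introns early in spliceosome assembly.

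MDA-MB-231 is an established cell line of triple-negative breast cancer (TNBC), a class of tumors without hormone receptors or HER2 amplification. PolyA+ RNA was sequenced from 3 libraries of cells transfected with non-targeting control siRNAs (si-CTRL) and 3 libraries of cells transfected with siRNAs against SAM68 (si-SAM68). Both groups received 2 transfections with a lipid reagent, were taken 24 h after the second one per the labels (the study's methods word the harvest time differently), and had no other treatment. The silencing was transient, in a mixed cell population, and at a single time. Per the study's methods, cells were harvested in triplicate. Neither this wording nor the labels say that the libraries of a group came from separate cultures. The p-values therefore measure only the spread between these libraries, which may be technical. In bulk RNA, fewer cells with a transcript cannot be told apart from less of it per cell.

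The libraries held from 52625492 reads (si-CTRL 1) to 82568487 reads (si-SAM68 2) on the table's loci. Markers of the line and of other cell types were read first. VIM lay between 138300 and 173162 normalized reads, CD44 between 43246 and 68397 and EGFR between 3138 and 4104. PGR was at 0 in all 6 libraries, CDH1 did not exceed 4.60, EPCAM did not exceed 9.20 and the higher of the 2 ESR1 loci did not exceed 15.2. ERBB2 was read at 2413 to 3447. Of 4 genes that mark other cell types, PTPRC, PECAM1, ALB and NEFL, none exceeded 16.3 normalized reads.

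In the loci tested, 2 libraries stood apart from the rest. The si-CTRL 1 library, the shallowest, was the highest of the 6 at 27.5% of the loci tested and the lowest at 28.3%, against 11.4% to 19.1% in the other libraries. In si-SAM68 2 the ribosomal RNA locus took 15.1% of reads, against 1.83% to 3.17% elsewhere. The members and lists were therefore also read without si-CTRL 1.

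Because every comparison rests on the knockdown, the SAM68 siRNAs listed by the study are shown first, although it is not stated that all 4 made up the pool used for these libraries. Each is given as its 19-base sense strand, which equals the KHDRBS1 mRNA at its target, and the capitals mark the 7 bases that pair with the seed (bases 2 to 8) of the guide strand.
siSAM68_1: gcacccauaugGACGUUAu
siSAM68_2: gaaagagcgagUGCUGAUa
siSAM68_3: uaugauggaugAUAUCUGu
siSAM68_4: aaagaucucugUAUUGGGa
In GRCh38, the build of the transcript annotation (GENCODE 29), all 4 lie in coding exons of KHDRBS1 on the plus strand of chromosome 1. siSAM68_2 matches chr1:32030383-32030401 in exon 2 of the 9 exons of the longest transcript (2757 bases), and siSAM68_4 matches chr1:32031595-32031613 in exon 3. siSAM68_3 matches chr1:32036912-32036930 in exon 5 and siSAM68_1 matches chr1:32042603-32042621 in exon 9. Of the 4 annotated KHDRBS1 transcripts, siSAM68_4 matches 3 and each of the other siRNAs matches all 4.

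Outside KHDRBS1 no member came near a full match. Over the annotated transcripts of KHDRBS2, KHDRBS3, QKI and SF1, the best ungapped alignment of each SAM68 siRNA left 5 to 7 mismatches over 19 bases. The 4 control siRNAs left 5 to 8. Seed matches also occurred with the control siRNAs: in the longest coding transcripts of these 4 members, 5 of the 16 pairs of SAM68 siRNA and member had at least 1 match to the 7-base seed, and so did 7 of the 16 pairs with control siRNAs. With the 6-base seed (bases 2 to 7) the counts were 9 and 8. The long QKI transcript accounted for 3 of the 5, with 1 match for siSAM68_2, 2 for siSAM68_3 and 1 for siSAM68_4. Among coding transcripts within 20% of its length, 59.3%, 47% and 29.5% held such a match, and whether transcripts with a match differed was not tested. KHDRBS2 had 1 match to siSAM68_3 and KHDRBS3 had 1 to siSAM68_2, which 11.1% and 19.3% of transcripts near their lengths held. SF1 had no match to a SAM68 siRNA. The 7-base seeds of siCTRL_2, siCTRL_3 and siCTRL_4 had 1, 3 and 7 matches in the QKI transcript. In the SF1 transcript they had 1, 1 and 3, and siCTRL_2 had 1 in KHDRBS2.

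KHDRBS1 was read at 15660, 14483 and 14737 normalized reads in the 3 si-CTRL libraries, and at 583.3, 601.6 and 670.2 in the 3 si-SAM68 libraries. Normalized reads are read counts divided by a library's size factor. All 3 silenced libraries lay far under all 3 controls and close to each other, so the labels and the target RNA go together in each library. Mean levels were 14960 ± 620 (SD, n = 3) and 618 ± 45.8 (SD, n = 3), and the silenced cells held 4.13% of the control level. The log2 fold change was -4.60 (SE 0.08, 95% interval -4.78 to -4.41), with a limma adjusted p of 2.13e-09. None of the 18849 loci tested had a larger absolute log2 fold change. The locus (GSHG0000334) spans chr1:32479295-32526460 in hg19, the build of the table, and 579 to 654 reads remained on it per silenced library, so the residual level was well above the floor of 3 reads.

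**Figure D1:**
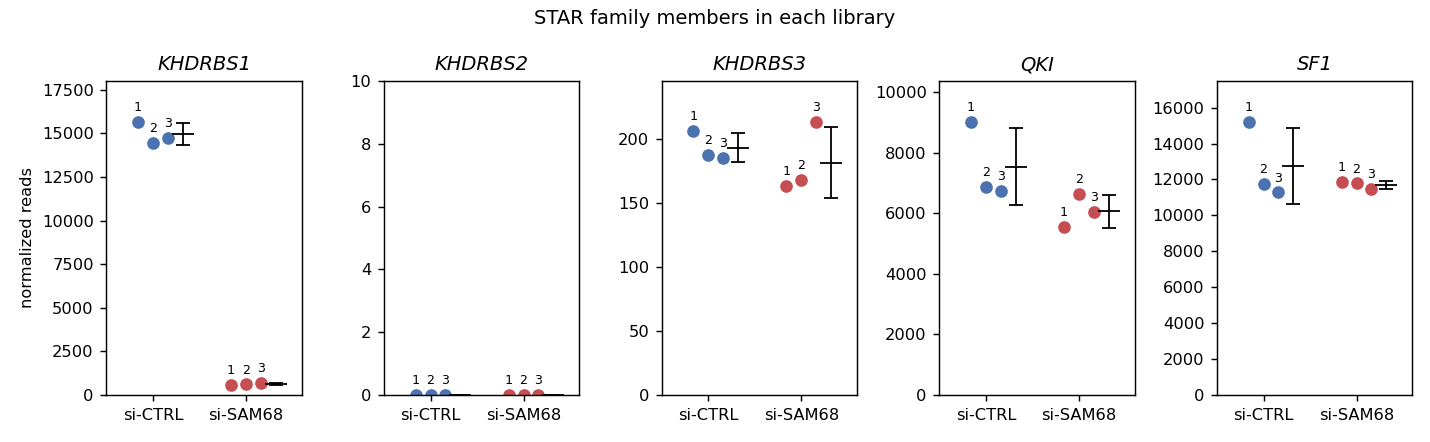
Normalized reads (vertical axis from 0, a scale per gene) of the 5 STAR family members in the si-CTRL (blue) and si-SAM68 (red) libraries, numbered by replicate, with black bars for mean and SD (n = 3). KHDRBS1 falls from about 14960 to 618.4, KHDRBS2 is at 0 in all libraries, and si-CTRL 1 is the high point for QKI and SF1.

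KHDRBS3 is the paralog that this line expresses. It was read at 206.2, 187.9 and 185.4 normalized reads in si-CTRL and at 163.2, 168.3 and 213.4 in si-SAM68. The groups overlapped: the highest value of all was a silenced library, si-SAM68 3, and the other silenced libraries held the 2 lowest. Means were 193.2 ± 11.4 and 181.6 ± 27.6 (SD, n = 3 each). The log2 fold change was -0.10 (SE 0.15, 95% interval -0.42 to 0.23; limma adjusted p 0.713). In linear terms the interval ran from 0.745-fold to 1.17-fold, and differences inside it were not resolved in either direction. The value moved with single libraries: it was -0.05 without si-CTRL 1 or without si-SAM68 2, -0.03 without si-SAM68 1 and -0.22 without si-SAM68 3, with upper limits of 0.30, 0.34, 0.35 and 0.12. The value rests on 162 to 195 reads per library.

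KHDRBS2, which is known mainly from the nervous system, had 0 reads in each of the 6 libraries, 0 of 396635406 reads in all. With a floor of 3 reads per library, its level lay under 3.75 normalized reads in the shallowest library and under 2.76 in the deepest. These floors cover counting error only. Both groups were under the floor, so no fold change was computed, and expression of KHDRBS2 after silencing was not detectable at this depth.

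To compare genes, normalized reads were divided by the length of the longest annotated transcript in kb. On this scale KHDRBS1 stood at 5426 ± 225 per kb in si-CTRL and KHDRBS3 at 35.3 ± 2.08 (SD, n = 3). KHDRBS3 thus held 0.63% to 0.66% of the summed level of KHDRBS1, KHDRBS2 and KHDRBS3 in the control libraries. In the silenced libraries its share was 12.4%, 12.4% and 13.8%. The levels behind the share show where it came from: KHDRBS1 fell by 5202 per kb between the group means, while KHDRBS3 differed by -2.11 per kb. The summed level went from 5462 ± 227 per kb to 257.5 ± 21.7, and KHDRBS1, even after silencing, remained the more abundant of the pair in each library. The annotated transcripts of KHDRBS3 differ widely in length, and the share depends on it. With the longest protein-coding transcript (an alternative chosen after seeing the data) it was 1.72% to 1.8% in si-CTRL and 28.1% to 30.7% in si-SAM68. With the median transcript length it was 3.75% to 3.92% in si-CTRL and 46.4% to 49.6% in si-SAM68.

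QKI was read at 9024, 6888 and 6731 normalized reads in si-CTRL and at 5549, 6636 and 6039 in si-SAM68. All 3 silenced libraries were lower than all 3 controls, but the gap between the nearest values was small, and si-CTRL 1 stood well above the other controls. Means were 7548 ± 1281 and 6075 ± 545 (SD, n = 3 each). The log2 fold change was -0.30 (SE 0.12, 95% interval -0.57 to -0.04), with an unadjusted p of 0.0286 and a limma adjusted p of 0.134, so QKI did not pass the threshold of 0.05. Without si-CTRL 1 it was -0.17 (95% interval -0.34 to 0.00, limma adjusted p 0.171). Over all alternatives the adjusted p was lowest with DESeq2 (0.0707) and highest with limma without si-SAM68 1 (0.324). The lowest limma adjusted p was 0.112. The log2 fold change was below 0 in each of the 16 alternatives. The upper limit with all libraries was 0.973-fold, but the interval reached above 0 without the eBayes trend (upper limit 0.05), without si-SAM68 1 (0.07), without si-SAM68 3 (0.04) and, barely, without si-CTRL 1. It lay below 0 without si-CTRL 2 (-0.36, upper limit -0.07), si-CTRL 3 (-0.38, -0.09) or si-SAM68 2 (-0.37, -0.07).

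SF1, the branch point binding protein, was read at 15199, 11761 and 11276 normalized reads in si-CTRL and at 11872, 11776 and 11452 in si-SAM68. The silenced libraries had an SD of 220.2, against 2139 in the controls, and lay inside the range of the controls, where si-CTRL 1 was again the high one. The log2 fold change was -0.11 (SE 0.11, 95% interval -0.35 to 0.13; limma adjusted p 0.55). Without si-CTRL 1 the sign turned, to 0.02 (95% interval -0.11 to 0.15; limma adjusted p 0.836, with a range of 0.328 to 0.836 over all alternatives). With all libraries the upper bound was 1.09-fold.

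**Figure D2:**
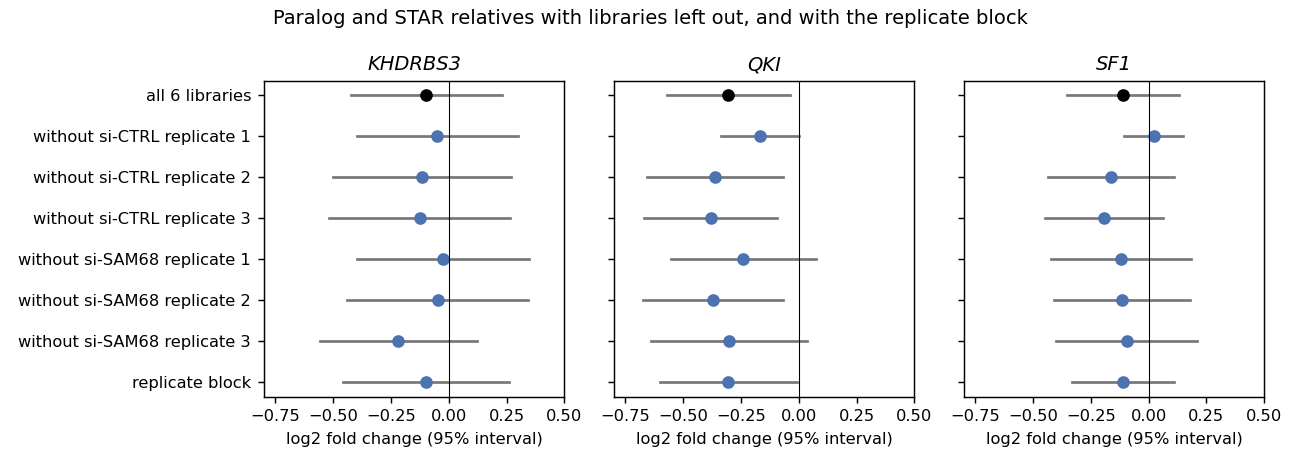
Log2 fold change (horizontal axis, dot) with 95% interval (line) of KHDRBS3, QKI and SF1 for all 6 libraries, with each library left out, and with the replicate number as a block. Most intervals span 0, and leaving out si-CTRL 1 takes QKI from -0.30 to -0.17 and SF1 from -0.11 to 0.02.

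Of the 4 members tested, KHDRBS1 alone passed the adjusted threshold, and it was the target of the siRNAs. Of all loci tested, 10.7% passed it in either direction, 6.23% lower and 4.47% higher in si-SAM68. At an unadjusted p up to 0.05 and a fold of at least 1.5, the study's thresholds if its p-values were unadjusted, KHDRBS1 was again the single member, where 7.67% of all loci passed. KHDRBS1 and QKI had groups that did not overlap, which held for 33.9% of all loci tested and for 10% by chance with 3 against 3 libraries taken as exchangeable, without regard to replicate number. An exact two-sided permutation test, also without regard to replicate number, gave 0.1 for KHDRBS1 and QKI, 0.5 for KHDRBS3 and 0.9 for SF1. Its smallest possible p with 3 against 3 libraries is 0.1. No member other than KHDRBS1 was called, and no paralog had a higher mean in si-SAM68.

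**Figure D3:**
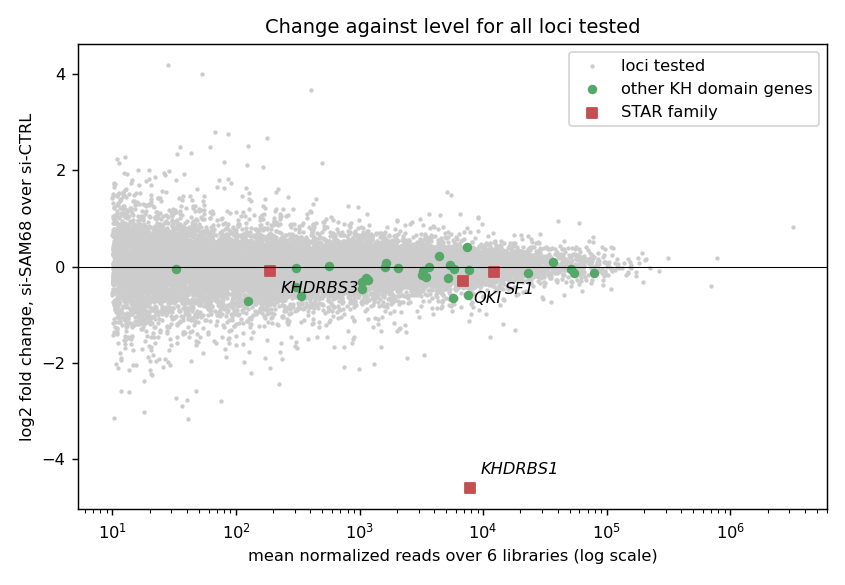
Log2 fold change (vertical axis) against mean normalized reads (horizontal axis, log scale) for the 18849 loci tested (gray), the 30 other KH domain genes (green) and the 4 STAR members tested (red). KHDRBS1 lies at -4.60, below all other loci, while QKI, SF1 and KHDRBS3 lie within the gray band.

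Set beside 30 other genes with KH domains, the family held ranks from 5 to 35 in level per kb of longest transcript. Of 31 genes listed, KHSRP was not matched, KHDC4 was matched under its earlier symbol KIAA0907, and each matched gene had 1 locus. Per kb of longest transcript in si-CTRL, PCBP1 (32239 per kb) and HNRNPK (27847 per kb), 2 abundant poly(C)-binding proteins, ranked first and second of the 35 STAR and KH genes. KHDRBS1 ranked 5, SF1 ranked 6 at 3673 ± 616 per kb, QKI ranked 15 at 798 ± 135 per kb, KHDRBS3 ranked 32 and KHDRBS2 ranked last. KHDRBS1 exceeded 94.9% and KHDRBS3 15.4% of the 13246 tested genes with a known length. The control libraries of KHDRBS1, SF1, QKI and KHDRBS3 did not overlap on this scale, whereas QKI and its neighbors in the order, AKAP1 and IGF2BP3, were within 1 SD of each other. The order of the first members depends on the length used: with the longest transcript SF1 stood at 60.8% to 77.1% of KHDRBS1 in si-CTRL and QKI at 13.3% to 16.8%. With the median transcript length SF1 stood at 225.5% to 286% and QKI at 113.1% to 142.8% there, and KHDRBS1 ranked 12, so both were above it before silencing on that scale. In si-SAM68 both were above KHDRBS1 in every library on both scales. In si-CTRL KHDRBS3 ranked 29 with the median length and 31 with the longest protein-coding transcript. By mean normalized reads over all libraries, without regard to length, KHDRBS3 exceeded 34.9% of the loci tested.

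**Figure D4:**
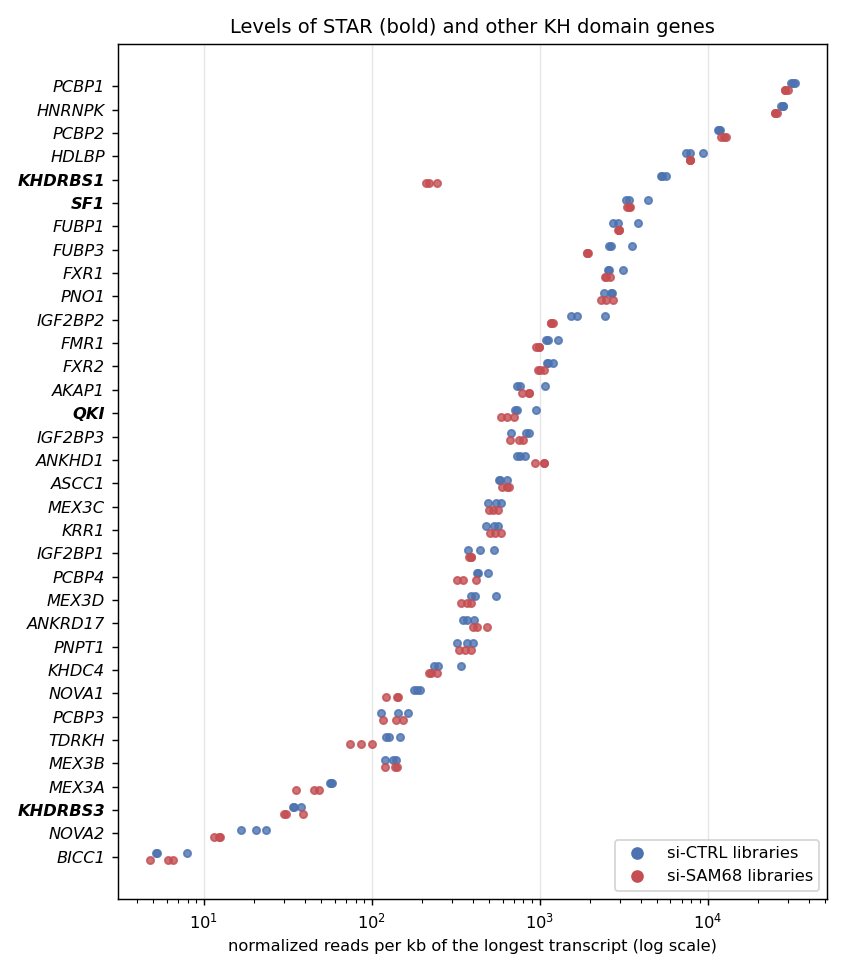
Normalized reads per kb of the longest transcript (horizontal axis, log scale) of STAR (bold) and other KH domain genes with reads, ordered by mean in si-CTRL, with 1 dot per library. KHDRBS1 moves from 5426 to 224.3 per kb, and KHDRBS3 lies near the low end in both groups. KHDRBS2, at 0, is not drawn.

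Among the 30 other KH domain genes, 5 were lower and 1 was higher in si-SAM68 at a limma adjusted p under 0.05, and 24 did not pass, so 20% were called against 10.7% of all loci tested. The median log2 fold change was -0.11 against 0.01 over all loci tested. Of the 30 values, 24 were below 0, against 9258 of the 18849 loci tested. Without si-CTRL 1 the median was -0.08, with 20 values below 0, against 9424 of the 18849 loci. Again 5 were lower and 1 was higher in that fit, against 15.1% of all loci called. With other libraries left out, 3 of the 30 were called without si-CTRL 2 (8.45% of all loci), 5 without si-CTRL 3 (5.85%), 3 without si-SAM68 1 (4.9%), 1 without si-SAM68 2 (4.29%) and 0 without si-SAM68 3 (3.32%). Without the eBayes trend NOVA2 alone was called (limma adjusted p 0.0475), against 4.77% of all loci. With a minimum mean of 50, 6 of the 29 KH genes tested were called, against 2165 of the 15034 loci tested. No test was made of the list as a whole.

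The lower genes included both NOVA paralogs, neuronal splicing regulators that also carry KH domains. NOVA2 was read at 160, 182.1 and 129.3 normalized reads in si-CTRL and at 97.7, 96.6 and 89.4 in si-SAM68, with a log2 fold change of -0.71 (95% interval -1.09 to -0.34; limma adjusted p 0.0261). NOVA1, outside the naming rule and named to complete the 5, had means of 1219 and 890.6 and a log2 fold change of -0.46 (95% interval -0.68 to -0.24; limma adjusted p 0.0185). The groups did not overlap for either gene. NOVA2 was not called without si-CTRL 2, si-SAM68 1, si-SAM68 2 or si-SAM68 3 (limma adjusted p 0.0756, 0.0703, 0.0767 and 0.108), nor NOVA1 without si-CTRL 2, si-SAM68 2 or si-SAM68 3 (0.0539, 0.0921 and 0.056).

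IGF2BP2, which binds and stabilizes mRNAs, was read at 9060, 6168 and 5686 normalized reads in si-CTRL and at 4318, 4422 and 4291 in si-SAM68 (log2 fold change -0.65, 95% interval -0.98 to -0.32; limma adjusted p 0.023). FUBP3, a far upstream element binding protein whose locus also carries MIR6856, was read at 11000, 8062 and 8316 against 6081, 5955 and 6001 (log2 fold change -0.59, 95% interval -0.84 to -0.34; limma adjusted p 0.0116). In both, si-CTRL 1 was the high control and the silenced libraries were close together. Without si-CTRL 1 both log2 fold changes were -0.45 and both genes were called. IGF2BP2 was not called without si-SAM68 1, si-SAM68 2 or si-SAM68 3 (limma adjusted p 0.0841, 0.0657 and 0.105), nor FUBP3 without si-SAM68 1 or si-SAM68 3 (0.0507 and 0.0655). Without the eBayes trend neither was called (0.101 and 0.0664). TDRKH, a piRNA pathway protein with Tudor and KH domains, had means of 407.0 and 268.1 (log2 fold change -0.61, 95% interval -0.92 to -0.29; limma adjusted p 0.0245), and was not called without si-CTRL 2, si-SAM68 2 or si-SAM68 3 (0.0673, 0.08 and 0.109) or without the eBayes trend (0.0665).

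The single higher gene was ANKHD1, an ankyrin repeat protein with 1 KH domain, at a locus shared with EIF4EBP3. It was read at 6753, 6245 and 6041 normalized reads in si-CTRL and at 7720, 8735 and 8663 in si-SAM68 (log2 fold change 0.40, 95% interval 0.22 to 0.58; limma adjusted p 0.0151), and was not called without si-CTRL 3, si-SAM68 2 or si-SAM68 3 (0.0567, 0.0809 and 0.0808) or without the eBayes trend (0.0669). The 3 KH genes with the most normalized reads did not pass: PCBP1 had a log2 fold change of -0.14 (limma adjusted p 0.241), HNRNPK of -0.13 (0.256) and HDLBP of -0.06 (0.748), the last of which turned to 0.05 without si-CTRL 1.

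**Figure D5:**
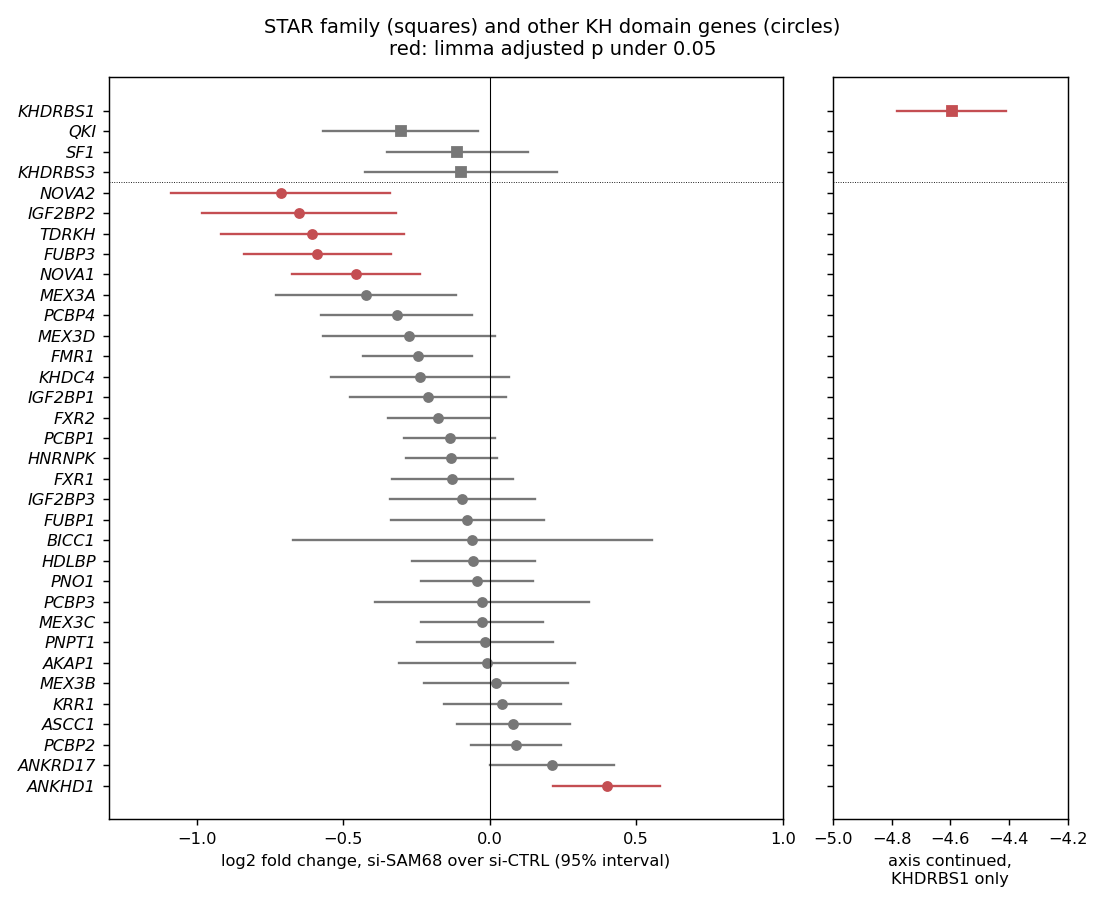
Log2 fold change (horizontal axis) with 95% interval for the 4 STAR members tested (squares) and 30 other KH domain genes (circles), red where the limma adjusted p is under 0.05. KHDRBS1, at -4.60, is drawn in a panel of its own at the right. QKI, SF1 and KHDRBS3 are gray, and the 6 red circles are NOVA2, IGF2BP2, TDRKH, FUBP3, NOVA1 and ANKHD1.

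SF1 hands the intron on to the U2 machinery, so 10 genes of branch point and 3 prime splice site recognition were read beside it. None passed the adjusted threshold by limma (10.7% of all loci did), 1 had an unadjusted p up to 0.05 (27% of all loci), and the median log2 fold change was -0.10 (0.02 without si-CTRL 1). Log2 fold changes of the 3 most abundant, DDX39B, U2AF2 and U2AF1, were 0.05, -0.13 and 0.13. With a library left out, that of DDX39B ranged from 0.00 to 0.08, that of U2AF2 from -0.17 to -0.09 and that of U2AF1 from 0.03 to 0.18. DDX39B and U2AF1 share their loci with other genes. edgeR on recovered reads also called none and DESeq2 called 1, against 10.7% and 14.8% of all loci.

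Of 8 genes whose proteins work with Sam68 in splicing, none passed by limma (10.7% of all loci did), 3 had an unadjusted p up to 0.05 (27% of all loci), and the median log2 fold change was -0.07. SND1, a scaffold protein that binds Sam68, was read at 22042, 20839 and 20633 normalized reads against 18404, 18230 and 17890. Its groups did not overlap, and its log2 fold change of -0.22 had a limma adjusted p of 0.0689 (0.0441 without si-CTRL 1, with a range of 0.0373 to 0.213 over all alternatives). HNRNPA1 had a log2 fold change of 0.04 and U2AF2 of -0.13 (0.02 to 0.07 and -0.17 to -0.09 with a library left out). Without si-CTRL 1, 2 of the 8 passed, and without si-CTRL 2, 1 did, against 15.1% and 8.45% of all loci. edgeR on recovered reads called none of the 8 and DESeq2 called 2, against 10.7% and 14.8% of all loci.

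Of 12 genes known as splicing targets of Sam68 or its paralogs, 9 loci were tested, 1 was lower and 8 did not pass (11.1% called, against 10.7% of all loci tested). The called locus carries both SMN1 and SMN2, near-identical copies whose reads cannot be told apart here. It was read at 24238, 22402 and 23876 normalized reads in si-CTRL and at 18280, 18515 and 19616 in si-SAM68 (log2 fold change -0.32, 95% interval -0.48 to -0.16; limma adjusted p 0.0212). It was not called without si-CTRL 3, si-SAM68 1, si-SAM68 2 or si-SAM68 3 (0.0722, 0.077, 0.101 and 0.0603) or without the eBayes trend (0.0777), when no target was called. CD44 and SRSF1 had log2 fold changes of 0.17 and 0.03, the second of which turned to -0.01 with quantile normalization. CD44 was read highest in si-CTRL 1, and without that library its log2 fold change was 0.36 (95% interval 0.18 to 0.53; limma adjusted p 0.0134, with a range of 0.0134 to 0.923 over all alternatives). In that fit 3 of the 9 targets were called, against 15.1% of all loci. Without si-CTRL 2, its lowest library, CD44 had a log2 fold change of 0.02 (95% interval -0.26 to 0.31; limma adjusted p 0.923). These are levels of whole loci, and exon use was not measured by this table.

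Likeness of pattern over the 6 libraries was taken as Pearson r on log2 values, among loci with a symbol and a mean of at least 50, and is a description only, since the libraries share their groups and depths. The loci most like KHDRBS1 were BTBD1, MFN2 and PID1 (r from 0.9981 to 0.9993), whose patterns, by this choice, separate the groups as it does. BTBD1, a BTB domain protein, had a log2 fold change of -1.83, MFN2, a mitochondrial fusion protein, of -0.98 and PID1 of -0.50, and no test of these loci is given. The locus most like QKI was SYNJ2 (r 0.9989), and those most like SF1 were MYO9B, CIZ1 and the locus of AGFG1 and MIR5703 (r from 0.9923 to 0.9977), all with si-CTRL 1 as the highest library. For KHDRBS3 they were the locus of HNRNPA3, GNL2 and SLC27A2 (r from 0.9817 to 0.9864). Between members, QKI and SF1 had the highest r, 0.832, and KHDRBS1 with KHDRBS3 had 0.376.

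Loci that overlap a member were few and low. The KHDRBS1 locus lies inside that of TMEM234, which was read at 162.7 to 189.4 normalized reads and had a log2 fold change of 0.13 (95% interval -0.15 to 0.42; limma adjusted p 0.541). QKI (chr6:163835675-163999627) is overlapped by 3 loci without a symbol that did not exceed 24.6 normalized reads, and SF1 (chr11:64532076-64546316) by 2 that did not exceed 102.5. KHDRBS2 (chr6:62389865-62996132) is overlapped by 2 and KHDRBS3 (chr8:136469699-136659853) by 3, all at 0. These positions are in hg19. Whether reads were counted by strand was not given in the sources used here, so reads of overlapping loci on opposite strands cannot be told apart, and their part in the values of QKI and SF1 was not tested. In si-SAM68, TMEM234 was read at 186.5 to 189.4 beside 583.3 to 670.2 for KHDRBS1. Whether shared reads made up part of the residual KHDRBS1 level was not tested.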

How the data were processed

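PolyA+ RNA-seq libraries of MDA-MB-231 cells, 3 si-CTRL and 3 si-SAM68, were analysed from 1 deposited gene table. The deposited values are a signal that is never negative: reads per locus divided by DESeq2 size factors by the authors. Their processing notes name STAR 2.4.0 and hg19. Whole reads were recovered from the step of 1 read in each library (100% of values whole within 0.1 read). Loci averaging 10 or more (18849) were tested on log2(value + 1) with limma 3.58.1 (lmFit, eBayes with trend; R 4.3.3) and Benjamini-Hochberg adjustment over all of them; fold changes are on that scale and understate those of low loci. edgeR 4.0.16 and DESeq2 1.42.0 on recovered reads, which called 2026 and 2789 loci against 2017 by limma, were alternatives, with other pseudocounts, filters, scalings and left-out libraries. The scripts were tested on simulated data.

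Deviations from the group means had r of 0.105, 0.231 and 0.125 between same-numbered libraries, and -0.125 to 0.007 in other pairs. These r values constrain each other, since the deviations of a group sum to 0 at each locus. The study's methods name no block, and whether the numbers pair the libraries was not tested. With the replicate block 1697 loci were called, and QKI had a log2 fold change of -0.30 (adjusted p 0.169).

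Members and lists were chosen with earlier results of these data known. Text names all members; from each other list the called genes (up to 4 per direction by size) and the 3 most abundant; up to 3 loci most like each member; overlapping loci; and markers. siRNAs were aligned to GENCODE 29 transcripts. Protein identity between members was not analysed here.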

Additional observations from a re-analysis of the deposited data

How the results depend on the processing

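The KHDRBS1 call held under all 16 alternatives (log2 fold change -4.66 to -4.56), and KHDRBS3, QKI and SF1 passed the adjusted threshold under none (adjusted p from 0.457, 0.0707 and 0.328 upward). SF1 turned from -0.11 to 0.0228 without si-CTRL 1, with -0.19 as the lowest value with a library left out; HDLBP turned to 0.0457 there (lowest -0.13), and SRSF1 to -0.0122 with quantile normalization. KHDRBS2 has no value under any setting. The 2017 loci called became 899 without the eBayes trend and 625 to 2839 with a library left out; 1445 loci passed p and fold, and 2240 without a minimum. The 6 other KH genes called became 1 without the trend and 0 to 6 with a library left out. The branch point list went from 0 to 1 with DESeq2; Sam68 cofactors from 0 to 1 with quantile normalization, 2 with DESeq2 and 0 to 2 with a library left out; known targets from 1 to 0 without the trend and 0 to 3 with a library left out. The causes were not tested. The KHDRBS3 share of the paralog sum, 0.647% and 12.9%, became 3.84% and 47.5% with median transcript length and 1.77% and 29% with the longest coding transcript. Pairs of SAM68 siRNA and member with a seed match went from 5 to 9 with seed bases 2 to 7, and those of control siRNA from 7 to 8. The replicate block changed no call of a member or named list gene. KHDRBS2 was at 0 and KHDRBS3 had at most 195 reads per library, and whether depth limited either was not tested.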
